A study of Mus musculus with 12 samples.

Results

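Outside hypomethylated regions (HMRs, the short stretches of low CpG methylation that mark promoters and enhancers), most of the b-cell genome was methylated at a high level. The windows described here are the 10% of the autosomal genome where it was lowest. The autosomes of mm39 were divided into 24633 windows of 100 kb, CpGs inside an HMR of any of the 4 pooled samples were dropped, and 23991 windows still held at least 200 CpGs. In each pool, a window's level was its methylated reads over its total reads, summed across the remaining CpGs and given as a percentage. The 4 pool levels were averaged with equal weight, and the 2400 windows with the lowest average, at or under 70.08%, were selected as members. The members were therefore chosen by their own levels, and the fact that they are low is not a finding.

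The cells were b cells sorted for eYFP and Apple from islets of Myt1cCre; Ngn3nCre; Rosa26eYFP, InsApple mice, and all groups carried these alleles. The eYFP+ cells (M+N+ in the labels, where the reporter is called eGFP) descend from progenitors that had expressed both Myt1 and Ngn3, and the eYFP- cells are M-N+. Mice were 2 days (P2) or 60 days (P60) old, with 2 libraries per subtype at P2 (replicate 1 from females, 2 from males) and 4 at P60 (replicates 1 and 3 from females, 2 and 4 from males). Read counts were given only as 1 pool per subtype and stage, so that each stage has 2 pools, and single libraries were given as HMR positions. eYFP depends on both Cre fragments, driven by Myt1 and by Ngn3, acting in the same cell, and each library combines several sorts of several mice. The labels title the samples as sorted b cells, although their cell type entry reads all islet cells. The library names carry 3 prefixes, 1 for all P2 libraries, 1 for P60 replicates 1 and 2 and 1 for P60 replicates 3 and 4, so stage and whatever the prefix marks cannot be told apart.

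A mammalian cell methylates CpGs again after each round of DNA replication. Large regions that replicate late, lie at the nuclear lamina and hold few active genes are known to end up only partly methylated in many cultured, cancer and long-lived cells, where they are called partially methylated domains. In such domains the CpGs that lose most are known to be solitary ones flanked by A or T on both sides (WCGW, where W is A or T), whereas CpGs with many neighbours or flanked by C or G (SCGS) keep more. b cells divide often in newborn mice and rarely in adults.

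The names of the pools were checked against the labelled libraries, because no label ties the columns B1 and B2 to a subtype. Of 5931 HMRs found at P2 only in pool B1, 24.0% and 27.2% overlapped an HMR of the 2 eYFP- libraries, against 4.55% and 6.002% of the eYFP+ libraries. Of the 4670 at P60, 9.91% to 20.7% overlapped an HMR of the 4 eYFP- libraries and 5.74% to 6.42% of the eYFP+ libraries. B1 was accordingly used as eYFP- and B2 as eYFP+. Gene starts of b-cell genes were little methylated in all 4 pools (Pdx1 0.636%, Nkx6-1 0.651%, Iapp 2.16% and Slc2a2 6.75% on average within 500 bp of the start), with Ucn3 at 17.8% and Ins1 at 19.2%, and the annotated start of Ins2 was an exception at 73.2%. Of 12 starts of genes of other cell types, 9 stood between 44.8% (Cel) and 79.7% (Cd3e), among them Gcg at 59.5% and Sst at 61.2%, and 3 transcription factor genes were low as well (Ptf1a 0.911%, Irx2 1.18% and Hhex 1.32%). Some starts moved with stage: Ins1 stood at 28.3% and 35.1% in the P2 eYFP- and eYFP+ pools and at 7.87% and 5.74% at P60, the exocrine Cpa1 at 76.01% and 72.2% against 84.7% and 85.7%, and the exocrine Cela1 at 54.6% and 47.4% against 62.6% and 62.7%. The part of other cells in the stage differences of the members was not tested. Amy2a5 had at most 9 reads in a pool and was left out.

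Short sequences show what the kinds of CpG compared below look like. The following 9 stretches of mm39, plus strand, are centred on the lone WCGW CpG nearest the middle of the 5 lowest members with at least 500 CpGs and usual coverage (first 5) and of the 4 members with the largest falls and usual coverage (last 4), among CpGs with at least 10 reads in every pool. Every CpG is in capitals. The kind of CpG was fixed by the choice of the stretches.
Window chr7:47200001-47300000, CpG at 47250031: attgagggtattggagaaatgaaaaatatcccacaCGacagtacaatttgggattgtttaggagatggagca
Window chr6:130600001-130700000, CpG at 130649844: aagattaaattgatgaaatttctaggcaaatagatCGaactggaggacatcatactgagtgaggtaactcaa
Window chr13:65700001-65800000, CpG at 65748832: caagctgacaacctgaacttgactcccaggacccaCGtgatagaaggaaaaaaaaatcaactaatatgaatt
Window chr7:9700001-9800000, CpG at 9750952: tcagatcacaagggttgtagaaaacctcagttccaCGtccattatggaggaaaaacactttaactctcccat
Window chr13:66200001-66300000, CpG at 66246172: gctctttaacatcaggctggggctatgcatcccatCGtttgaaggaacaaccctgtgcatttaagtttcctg
Window chr1:116600001-116700000, CpG at 116651346: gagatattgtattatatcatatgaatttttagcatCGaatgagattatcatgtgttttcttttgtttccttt
Window chr2:86300001-86400000, CpG at 86350815: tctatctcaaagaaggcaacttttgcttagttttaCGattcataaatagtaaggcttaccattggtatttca
Window chr6:68400001-68500000, CpG at 68450259: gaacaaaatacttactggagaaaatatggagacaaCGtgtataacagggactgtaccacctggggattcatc
Window chr16:67500001-67600000, CpG at 67550237: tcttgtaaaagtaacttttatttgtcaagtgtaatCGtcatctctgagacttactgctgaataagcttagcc

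All 9 CpGs had a lower level at P60 than at P2, on 22 to 186 reads per stage, but the 95% Wilson intervals of the stages lay apart in only 1. That CpG, in the chr16 window, stood at 75% of 60 reads at P2 (62.8 to 84.2) and at 43.4% of 53 reads at P60 (30.95 to 56.7). The chr13 CpG at 66246172 stood at 82.6% (69.3 to 90.9) and 63.2% (52.7 to 72.6), and the chr2 CpG at 90.7% (80.1 to 96.0) and 78.2% (65.6 to 87.1). The chr7 CpG at 9750952 was low at both stages, at 19.3% (11.1 to 31.3) and 15% (8.10 to 26.1). A single CpG at this depth thus rarely carries the comparison, which rests on the many CpGs of each window. Intervals here and below cover counting error only.

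For contrast, the next 5 stretches show the CpG nearest the middle of the same 5 lowest windows that has at least 3 other CpGs within 35 bp.
Window chr7:47200001-47300000, CpG at 47239748: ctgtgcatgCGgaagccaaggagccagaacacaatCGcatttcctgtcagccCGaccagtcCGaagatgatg
Window chr6:130600001-130700000, CpG at 130660700: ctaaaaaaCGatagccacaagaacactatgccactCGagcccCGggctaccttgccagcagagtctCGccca
Window chr13:65700001-65800000, CpG at 65738913: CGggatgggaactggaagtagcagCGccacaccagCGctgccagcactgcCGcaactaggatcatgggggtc
Window chr7:9700001-9800000, CpG at 9750021: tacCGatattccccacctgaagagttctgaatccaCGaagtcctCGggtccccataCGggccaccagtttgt
Window chr13:66200001-66300000, CpG at 66246804: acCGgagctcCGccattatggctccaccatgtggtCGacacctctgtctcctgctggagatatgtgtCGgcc

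Of 8 such CpGs, from these windows and 3 of the 4 with the largest falls, 7 were lower at P60, and the intervals overlap in all 8. The chr13 CpG at 65738913 was the lowest and the exception, at 30.4% of 161 reads at P2 (23.9 to 37.9) and 33.6% of 342 reads at P60 (28.8 to 38.8). The chr7 CpG at 9750021 stood at 81.5% of 151 reads (74.5 to 86.8) and 70.8% of 168 reads (63.6 to 77.2). In chr8:5200001-5300000, a window of like CpG density outside the members that was chosen after its values were seen, the lone WCGW CpG nearest the middle went from 64.4% to 59.8% and the clustered one from 77.6% to 74.3%, with overlapping intervals.

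Over all windows kept, the level of a pool was a single broad hump. Its spread over windows was 3.55 (SD) percentage points in P2 eYFP- cells and 3.35 in P2 eYFP+ cells, and it was wider at P60, with 6.37 and 6.32 percentage points. At P60 the distribution was wider on both sides: 1334 windows of eYFP- cells were under 65% at P60 against 199 at P2, and 7071 were over 80% against 3622. No gap separates the members from the rest. The 3 members just inside the threshold averaged 70.07% to 70.08%, the 3 windows just outside it 70.08%, and their P60 minus P2 differences were -7.72, -6.74 and -10.11 percentage points inside and -6.03, -9.95 and -6.53 outside. The label of partially methylated domains thus rests on a threshold on a continuous distribution.

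**Figure D1:**
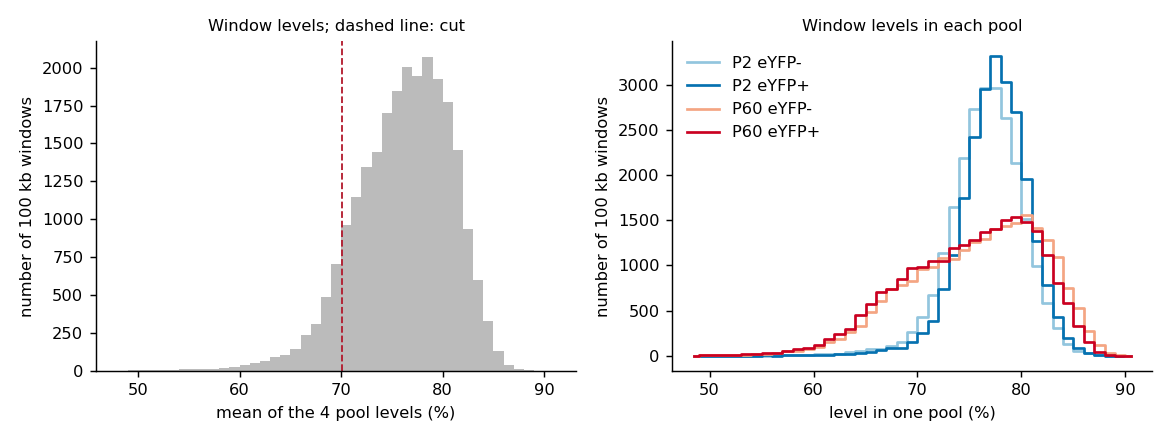
Number of 100 kb windows by methylation level (%), for the mean of the 4 pools with the selection threshold at 70.08% as a dashed line (left) and for each pool (right). The distribution is continuous at the threshold, and the P60 pools (SD 6.37 and 6.32 percentage points) are wider than the P2 pools (3.55 and 3.35).

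The median member stood at 70.97% in P2 eYFP- cells, 72.3% in P2 eYFP+ cells, 64.6% in P60 eYFP- cells and 64.0% in P60 eYFP+ cells. The other windows had medians of 77.2%, 77.9%, 77.4% and 76.7%. The median member was thus under the median other window in each pool, as the choice favours. Of the members, 76.6% were kept when windows were chosen on the P2 pools alone. Both P60 pools lay below both P2 pools in 2342 of 2400 members, or 97.6%, where 54.2% of all windows did so. Both P60 pools lay above both P2 pools in 15 members.

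The stage difference of the members had a median of -7.64 percentage points, with -6.64 in eYFP- and -8.58 in eYFP+ cells. The other windows had a median of -0.69. Since the rule averaged all pools and the P60 pools spread more widely, a low average favours windows that are low at P60. The windows were therefore also chosen on the P2 pools alone, and on the pools of each subtype alone. Of the 2400 windows chosen on the P2 pools alone, the median difference was -6.29, 89.0% fell, and the windows not chosen had a median of -0.83. Chosen on the eYFP- pools alone, the members had a median stage difference of -8.57 in the eYFP+ pools, whose levels were not used. There, 2375 of 2400 were lower at P60, against 64.6% of the windows not chosen. Chosen on the eYFP+ pools alone, the members differed by -6.61 in the eYFP- pools, and 2359 were lower, against 49.8% of the windows not chosen. Both choices by subtype still used a P60 pool, so they too favour windows low at P60. Only the choice on the P2 pools left the P60 pools out.

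Stage was tested in every window kept with limma on the log2 odds of the 4 pools, with stage and subtype as terms and Benjamini-Hochberg adjustment at 0.05, and a call needed a difference of at least 2 percentage points. P60 was lower in 2318 of 2400 members and higher in 10. Of the 10556 windows at least 2 percentage points lower at P60, 10521 were called, and of 2325 such members 2318 were. The adjusted p thus removed few of them. Over all windows 43.9% were called lower and 19.4% higher, or 36.2% and 27.9% with the pools centred on their medians, under which 2264 members were lower and 20 higher. For windows chosen on the P2 pools alone, 81.8% were called lower and 6.08% higher. With 2 pools per stage each window has 1 residual degree of freedom, and the fit used a single variance common to all windows. A window's own spread between pools therefore does not enter its p-value, and a very small p-value is not evidence from replicates of that window.

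The members that fell most were not among those with the lowest level. Of the 5 largest falls, 4 were in windows of usual coverage, in which each pool had 0.5 to 1.5 times the autosomal median of reads per CpG. The largest of these was in chr1:116600001-116700000, which holds no protein-coding gene. It stood at 68.4% and 70.7% in the P2 eYFP- and eYFP+ pools and at 57.8% and 55.8% in the P60 pools. On 4473 to 7944 reads a pool, the difference was -12.8 percentage points. With CpGs of at least 5 reads in each pool it was -9.45. chr2:86300001-86400000 holds the starts of the olfactory receptor genes Or8k41, Or8k30, Or8k31, Or8k32 and Or8k33. It stood at 73.8% (72.8 to 74.7) and 74.1% at P2 and at 61.8% (60.7 to 62.8) and 61.4% at P60. The difference was -12.4 percentage points. chr6:68400001-68500000, in the immunoglobulin kappa variable segments Igkv16-104 to Igkv14-100, fell from 69.8% and 70.6% to 58.7% and 57.8%. chr16:67500001-67600000, with no protein-coding gene start, fell from 70.3% and 71.01% to 59.1% and 58.5%. In all 4 windows both P60 pools lay below both P2 pools, which the choice of the largest falls favours. The largest falls and rises were picked by the difference that the test measures, so no p-values are given for them. The largest fall of all, -14.3 percentage points in chr7:20400001-20500000 with the vomeronasal genes Vmn1r107 and Vmn1r111 and the gene Gm10668, rests on 382 to 634 reads a pool.

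A rise was rare. The member with the largest rise was chr11:74300001-74400000 inside Rap1gap2, a regulator of the small GTPase Rap1. It stood at 63.2% and 63.0% at P2 and at 70.5% and 69.7% at P60. It rose by 7.01 percentage points, on 20213 to 36982 reads. Of its CpGs, 26.3% lay in HMRs, and with HMRs widened by 1 kb the difference was 5.80. chr12:116500001-116600000 inside Ptprn2, which encodes a protein of the membrane of insulin secretory granules, stood at 64.9% and 65.7% at P2 and 69.5% and 68.8% at P60. chr17:13800001-13900000 rose by 4.73 percentage points and overlaps no protein-coding gene. The other 2 of the 5 largest rises, on chromosomes 14 and 2, had at most 805 reads a pool and were no longer called once the fit was weighted by reads.

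The 10 lowest members lay at natural killer receptor genes, at Skint5, next to centromeres and at 2 further places. chr6:130000001-130100000 was the lowest, at 49.6% on average, and carries the starts of Klra6 and Klra4, natural killer cell receptors of the Ly49 family. Its level was 52.2% (51.2 to 53.1) and 54.0% in the P2 pools and 46.4% and 45.8% in the P60 pools. The neighbouring window with Klra8 and Klra9 averaged 52.2%. chr4:113500001-113600000 and chr4:113700001-113800000, both inside Skint5, of a family of immunoglobulin-like genes of skin and thymus, averaged 50.5% each at 0.419 and 0.472 times the usual coverage. The first windows with sequence on chromosomes 3, 4, 16 and 17, next to the centromeres, averaged 49.9%, 50.003%, 51.2% and 51.9% at 3.04, 3.67, 2.90 and 1.39 times the usual coverage, and on chromosomes 3 and 4 they differed between the stages by only -2.07 and -1.22 percentage points, which did not pass the test (limma, adjusted p = 0.125 and 0.383). Whether reads from other copies of these sequences set these levels was not tested. The remaining 2 of the 10 lowest, chr12:67100001-67200000 inside Mdga2 and chr7:38200001-38300000 with Gm5591, had 2.54 and 0.411 times the usual coverage.

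With at least 500 CpGs and usual coverage, the lowest member was chr7:47200001-47300000, at the start of Mrgpra3, an itch receptor of sensory neurons. It stood at 58.0% and 59.3% in the P2 pools and at 50.7% in both P60 pools, on 10308 to 17212 reads. chr6:130600001-130700000, which has no protein-coding start, followed with 56.8% on average. chr7:9700001-9800000 with the pheromone receptor genes Vmn2r49 and Vmn2r50 averaged 57.7%, and on chromosome 13 the windows from 65700001 and 66200001, the latter with Zfp997, averaged 57.5% and 58.1%. In all 5 windows both P60 pools were below both P2 pools, as in 97.6% of all members. The mean differences were -7.97, -7.03, -7.71, -6.96 and -3.93 percentage points in the order given. In the last of them the difference was -7.87 with HMRs widened by 1 kb.

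Members lay side by side. Of 2400 members, 1826 (76.1%) touched another member, and they formed 998 runs, of which 574 were single windows and 123 had 5 windows or more. These 123 runs held 1044 members. The longest, chr7:7300001-10600000, spanned 33 windows with 31 protein-coding starts, of which 28 were vomeronasal receptor genes. Its mean level was 63.7% and 64.7% in the P2 pools and 57.5% and 57.2% in the P60 pools. The next, chr17:17900001-21100000, spanned 32 windows with 30 vomeronasal genes among 39 and the formyl peptide receptor genes Fpr1, Fpr2 and Fpr3, and went from 68.3% and 69.8% to 60.97% and 60.5%. The third, chr12:113200001-116000000, spanned 28 windows and holds 146 immunoglobulin segments of the heavy-chain locus and only 2 protein-coding starts, Adam6b and Adam6a. It went from 64.2% and 65.8% to 56.5% and 56.4%. In all 3 runs both P60 pools lay below both P2 pools, as did 97.6% of all members taken singly. The mean differences were -6.88, -8.34 and -8.57 percentage points.

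At the edges of the runs of at least 5 windows the level stepped down, and it was lower still deeper inside. The median over 238 edges was 73.0% and 74.3% at P2 and 67.3% and 67.02% at P60 in the 20 kb just outside, and over 242 edges 71.2% and 72.3% at P2 and 64.9% and 64.2% at P60 in the 20 kb just inside. From 240 to 260 kb inside it was 69.05% and 70.3% at P2 and 61.9% and 61.5% at P60. The step itself follows from the choice of the windows. The sequence outside the runs was also lower at P60: in the outermost bin examined, the medians were 74.3% and 75.1% at P2 and 70.1% and 69.0% at P60.

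The members were poor in CpGs, a property that the rule did not use. They held a median of 5.14 CpGs per kb against 8.24 in the other windows, and had a GC content of 38.5% against 41.8%. In the median member 0.652% of the CpGs lay in an HMR of a pool, against 4.78% in the median other window, and 1192 members (49.7%) had none, against 16.9%. All windows were divided into 10 bins by CpG density. Members made up 34.5% of the windows in the poorest bin (2.96 to 4.66 CpGs per kb), 10.4% in the fourth and 1.25% in the eighth. With a minimum of 500 CpGs per window, which favours CpG-rich windows, 41.3% of the members were kept, and for windows chosen on the P2 pools alone the densities were 5.60 and 8.13.

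The stage difference also went with CpG density outside the members. In the poorest bin it had a median of -8.44 percentage points in members and -4.67 in the other windows. In the richest bin it was -3.52 in 38 members and 0.91 in the others. Members thus differed more between the stages than other windows of like CpG density in each of the 10 bins, a description that shares the pools with the choice of the windows.

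**Figure D2:**
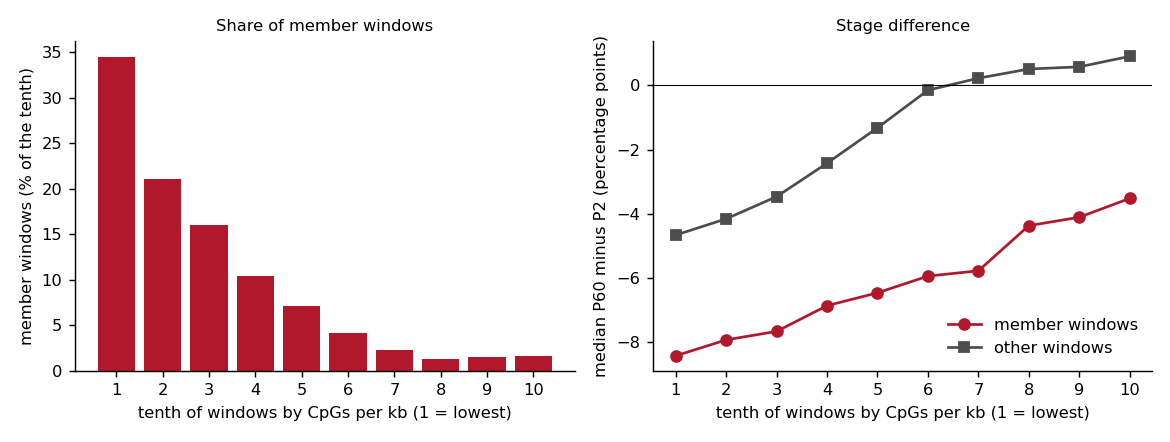
Share of member windows (%) and median P60 minus P2 difference (percentage points) in 10 bins of all windows by CpGs per kb, for members (red) and other windows (grey). Members fall from 34.5% of the poorest bin to 1.25% of the eighth, and their median difference lies below that of the other windows in every bin, at -8.44 against -4.67 in the poorest.

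Among the 1215084 CpGs of the members, 22.2% were lone WCGW CpGs, with no other CpG within 35 bp, against 15.7% of the 16473146 CpGs of the other windows. Lone WCGW CpGs of the members were methylated at 62.2% and 63.5% in the P2 eYFP- and eYFP+ pools and at 53.3% and 52.7% in the P60 pools, a difference of -9.84 percentage points. CpGs of the members with at least 3 neighbours stood at 78.5% and 79.4% at P2 and 75.5% in both pools at P60, a difference of -3.46. Across the classes of neighbours and flanks the order was the same in members and in other windows, with WCGW lowest, CpGs with 1 A or T flank between and SCGS highest. Lone SCGS CpGs of the members fell from 74.2% and 75.4% to 69.1% and 68.7%.

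In the other windows lone WCGW CpGs stood at 70.8% and 71.7% at P2 and 69.8% and 68.8% at P60, a difference of -1.97, and CpGs with at least 3 neighbours differed by 0.25. With reads summed over the windows and levels averaged over the pools, lone WCGW CpGs of members lay 19.3 percentage points under CpGs with at least 3 neighbours. In other windows they lay 13.4 under them. Within the members every class of CpG was lower at P60 in both subtypes, from -2.65 percentage points for SCGS with at least 3 neighbours to -9.84 for lone WCGW.

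**Figure D3:**
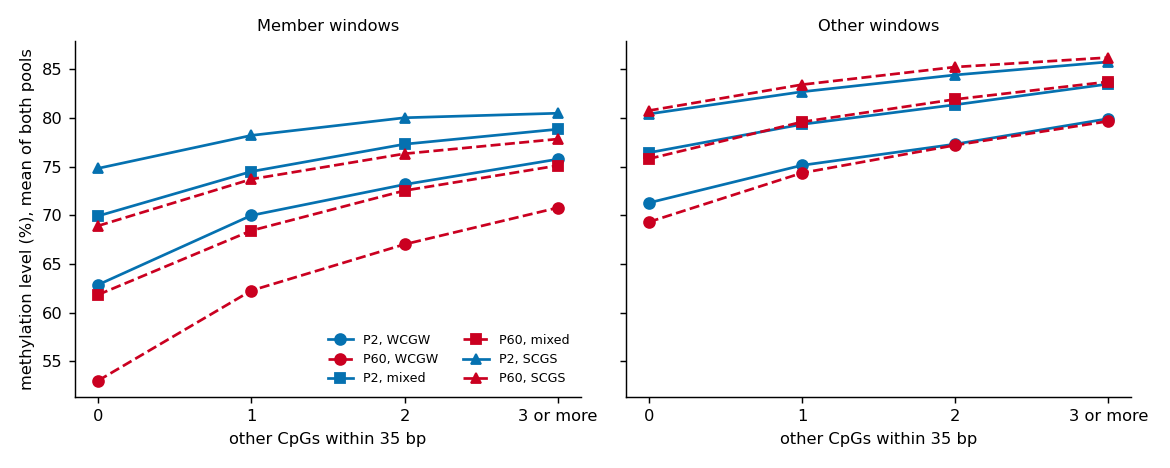
Methylation level (%, mean of the eYFP- and eYFP+ pools) at P2 (blue, solid) and P60 (red, dashed) by the number of other CpGs within 35 bp and by flanking bases (WCGW, mixed, SCGS), in member windows (left) and other windows (right). In members all 12 classes are lower at P60, most at lone WCGW CpGs (-9.84 percentage points), and in other windows the difference runs from -1.97 to 0.81 percentage points.

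The low level of the members came from partial methylation of many CpGs. Of 937032 member CpGs with at least 10 reads in every pool, 62.4% were between 20% and 80% methylated at P2 and 77.9% at P60, while CpGs above 80% went from 36.3% to 20.1%. Only 1.34% were under 20% at P2 and 2.00% at P60. In the other windows 39.7% were between 20% and 80% at P2 and 42.9% at P60. CpGs under 10% in all 4 pools made up 0.209% of the member CpGs and 0.195% of the others, and without them the members still differed between the stages by -6.07 percentage points in eYFP- and -7.87 in eYFP+ cells.

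Coverage was lower in the members, with a median of 23.3 reads per CpG and pool at P2 and 30.9 at P60, against 25.8 and 41.5 in the other windows. 336 members (14%) fell outside the range of usual coverage, against 8.60% of the others. With such windows left out before the choice, 2141 of 2180 members were called lower at P60 and 4 higher.

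Members carried 8.41 protein-coding starts per Mb against 8.62 in the other windows, and 63.0% of members had none, against 57.9%. Of 20594 protein-coding genes in the windows kept, 2007 (9.75%) started in a member. Olfactory receptor genes, which give each olfactory neuron its odorant receptor, had 598 of 1187 starts (50.4%) in members, spread over 153 member windows. Vomeronasal receptor genes, which detect pheromones, had 228 of 351 (64.96%) in 133 windows. Together these families gave 29.8% and 11.4% of all protein-coding starts in members. Without them and the zinc finger genes, 6.18% of the remaining 18650 genes started in a member, and these made up 57.4% of the protein-coding starts in members. Genes of a family lie side by side and share windows, so they are not independent.

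The olfactory member windows stood at a median of 70.97% and 72.4% at P2 and 63.9% and 63.1% at P60. P60 was called lower in 152 of 153 of them and higher in 0, near the 96.6% called lower among all members. The vomeronasal member windows were lower still, at 68.1% and 69.3% at P2 and 61.4% and 60.8% at P60, with 128 of 133 called lower and 0 higher, again near the share among all members. The other windows of these families, which were not chosen, were called lower in 144 of 180 and 65 of 71 windows, against 43.9% of all windows. They were poor in CpGs too, at 6.13 and 6.51 per kb, and had median stage differences of -5.12 and -5.89 percentage points. All non-member windows between 6.04 and 6.80 CpGs per kb had a median of -2.43.

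Immune loci and defence genes also had high shares. Of 493 immunoglobulin and T-cell receptor segments, which lymphocytes rearrange, 347 (70.4%) started in 65 members, of which 64 were called lower at P60, again near that share. Defensins, antimicrobial peptides of gut and epididymis, had 38 of 70 (54.3%) in members, and 37.2% when windows of unusual coverage were left out. Lectin-like receptors of natural killer and myeloid cells (Klr and Clec) had 26 of 60 (43.3%), and serpins, a family of protease inhibitors, 19 of 62 (30.6%). Their member windows were called lower at P60 in 13 of 13, 12 of 12 and 9 of 9, where 96.6% of all members were.

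The clustered protocadherins, cell-surface proteins by which neurons tell themselves from others, had the largest share, 55 of 59 (93.2%), in 8 member windows. These windows differed from the other members: they held a median of 10.995 CpGs per kb, 15.6% of their CpGs lay in HMRs, and their level was already low at P2, at a median of 64.2% and 64.4%, with 63.4% and 63.3% at P60. Their stage differences ran from -5.45 to 3.68 percentage points. P60 was called lower in 4 and higher in 1. Hox genes, the body-axis regulators kept silent by Polycomb outside their domain, had 19 of 24 in 5 members, and 15 further Hox genes lay in windows with fewer than 200 CpGs left. A median of 78.9% of the CpGs of these 5 windows lay in HMRs, so that their level describes the remaining fringe, at 69.4% and 69.9% at P2 and 65.9% and 66.6% at P60.

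Other families had shares below the 9.75% of all genes. Solute carriers had 7 of 364 starts (1.92%) in members, ribosomal protein genes 2 of 93 (2.15%), histone genes 3 of 79 (3.80%), collagens 2 of 42 (4.76%) and zinc finger genes 28 of 406 (6.90%). Keratins and keratin-associated proteins had 1 of 168, and UDP glucuronosyltransferases 0 of 22. Shares above it were those of cytochromes P450 with 12 of 101 (11.9%), the prolactin family with 3 of 25, cadherins 3 of 23, major urinary proteins 4 of 22, glutamate receptors 5 of 26, contactins 4 of 13, and Csmd genes with Lrp1b 2 of 4.

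None of 27 b-cell genes started in a member. Their windows averaged from 71.8% (Isl1, an islet transcription factor) to 82.1% (G6pc2, a glucose-6-phosphatase of the b cell). Mafa, an activator of insulin transcription, and Pdx1 lay nearest the threshold after Isl1, at 71.9% and 72.5%. Their median stage difference was 1.57 percentage points, in the opposite direction to the members. P60 was called higher in 9 of the 27 windows and lower in 1, against 19.4% and 43.9% of all windows and 1931 and 2272 of the 9084 non-member windows with a protein-coding start. The 27 windows were rich in CpGs, at a median of 10.8 per kb, and other windows between 10.16 and 11.52 per kb had a median stage difference of 0.51. The largest rise among them was that of the window of Foxa2, an endoderm transcription factor, with 9.13 percentage points.

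**Figure D4:**
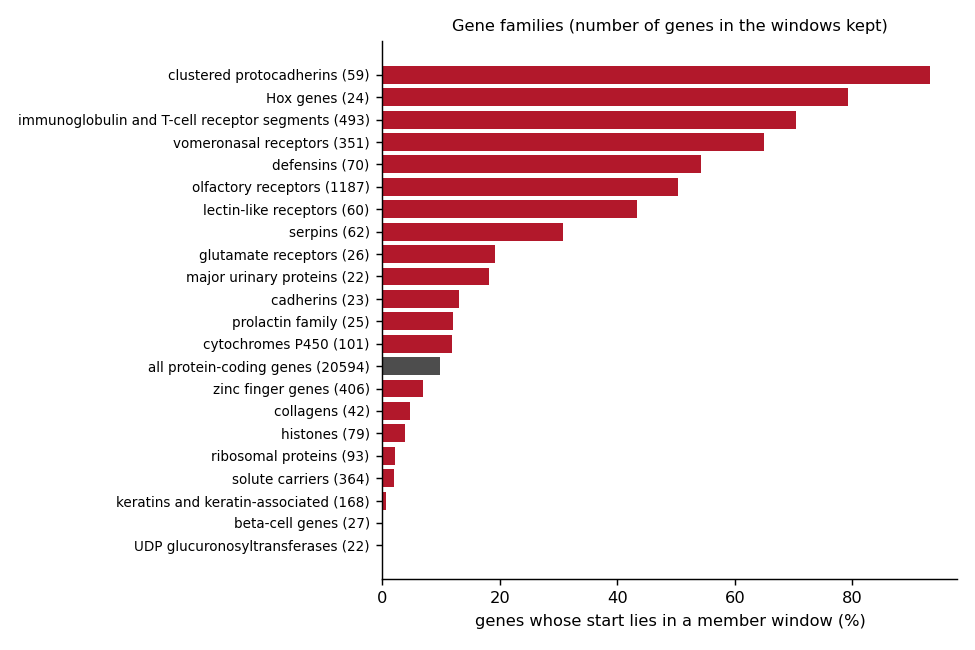
Share of genes (%) of each family whose start lies in a member window, for the families with at least 20 genes in the windows kept, whose number stands in parentheses. The grey bar is the 9.75% of all protein-coding genes. The highest shares are those of clustered protocadherins (93.2%), Hox genes (79.2%) and immunoglobulin and T-cell receptor segments (70.4%). Vomeronasal receptors (64.96%), defensins (54.3%) and olfactory receptors (50.4%) come next, while the b-cell genes are at 0%.

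Chromosome 7 held 365 members among 1418 windows (25.7%), followed by chromosomes 17 (16.2%), 14 (15.5%) and 12 (13.1%). The lowest share was that of chromosome 18, with 28 of 876 windows (3.20%), followed by chromosome 10 with 5.10%. Both long vomeronasal runs lie on chromosomes 7 and 17, and the immunoglobulin heavy-chain run on chromosome 12.

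In the members the median difference between the subtypes was small beside that between the stages. eYFP+ minus eYFP- had a median of 1.29 percentage points at P2 and of -0.61 at P60, against 0.69 and -0.74 in the other windows. The subtype term of the limma fit called 5 of 2400 members (3 higher and 2 lower in eYFP+), against 0.0292% of all windows. An unadjusted p under 0.05 was reached by 39 members and by 65 of 23991 windows. With the pools centred on their medians it was reached by 378 members and 2228 windows. The fit counts a subtype difference that changes sign between the stages as spread, so few calls do not show that the subtypes are alike. The 5 members called had 0.0215 to 0.0533 times the usual coverage and 131 to 1353 reads a pool. chr2:175400001-175500000, with Gm11007 and Zfp969, stood at 52.7% of 169 reads and 64.1% of 192 reads at P2 but at 61.9% and 62.4% at P60. chr6:123500001-123600000, with Vmn2r21, stood at 63.4% and 67.4% at P2 and 53.9% and 61.3% at P60. Apart from chr2:175400001-175500000, which is also among the 5 largest rises, these windows were named after their values were seen. The other 3 were chr2:175600001-175700000 with Gm6710, chr4:122200001-122300000 without a protein-coding start, and chr7:20100001-20200000 with Vmn1r244, Vmn1r100 and Vmn1r101. Weighted by the reads of each pool, the fit called 0 windows of any kind, with 4 members and 18 of all windows under an unadjusted p of 0.05.

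HMRs of single libraries show the spread over libraries. The libraries are those whose pooled reads chose the members, and the choice favours windows low at P60, so the stages are described with no test. An HMR was placed by its middle. In the 4 P2 libraries, 2.71% to 2.79% of the HMRs lay in members, and in the 8 P60 libraries 3.37% to 4.11%, so that the groups do not overlap. The means were 2.74% ± 0.036 (SD, n = 4) and 3.62% ± 0.252 (SD, n = 8), a difference of 0.884 percentage points. Within the 2 name prefixes of P60, replicates 1 and 2 of both subtypes averaged 3.78% ± 0.275 (n = 4) and replicates 3 and 4 averaged 3.46% ± 0.076 (n = 4).

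The number of HMRs in members overlapped between the stages, while the total was lower at P60. P2 libraries had 1516 to 1627 HMRs in members and P60 libraries 1263 to 1787, and the total in the windows kept went from between 55603 and 59852 to between 37047 and 48376. The part of the members' bases that lay in HMRs was 0.958% ± 0.021 (n = 4) at P2 and 0.979% ± 0.101 (n = 8) at P60, and the ranges overlap, against 2.37% to 2.55% and 1.83% to 1.93% of the bases of the other windows. In the other windows there were 25.1 to 27.0 HMRs per Mb at P2 and 16.6 to 21.6 at P60.

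Between the subtypes, the share at P60 was 3.58% ± 0.228 (n = 4) in eYFP+ and 3.66% ± 0.302 (n = 4) in eYFP- libraries, and the ranges overlap (two-sided exact permutation test, p = 0.6), and the difference of -0.0855 percentage points was 0.0614 without eYFP- replicate 1. At P2 it was 2.72% and 2.76% with 2 libraries each, a design whose smallest p is 0.333 (exact permutation p = 0.667).

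**Figure D5:**
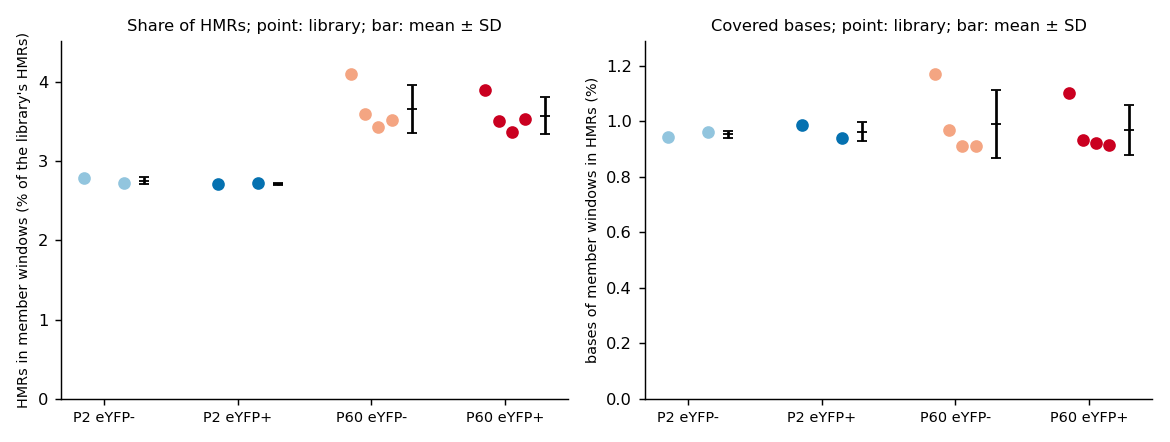
HMRs in member windows as a share of the library's HMRs (%, left) and bases of member windows inside HMRs (%, right), by group. Points are libraries and bars the mean ± SD. The 8 P60 libraries lie above the 4 P2 libraries in share (3.37% to 4.11% against 2.71% to 2.79%) and overlap them in covered bases.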

How the data were processed

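Sorted b cells were assayed by tagmentation-based whole genome bisulfite sequencing. Per the labels and the study's methods, the authors trimmed reads with Trim Galore 0.6.6 (cutadapt 1.16, FastQC) and used SAMtools 1.5 (versions from the submitters' processing notes), mapped them to mm39 with abismal and counted methylated and unmethylated reads per CpG with MethPipe, whose versions are not given in the sources used here. The deposited count tables hold these counts for 1 pool per subtype and stage, a mean of 25.4 to 44.8 reads per CpG in the windows kept, so that library spread within a pool is not visible. The deposited HMR files give positions. The authors' difference scores and candidate DMR lists are their own comparisons and were not used.

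All 40304233 listed autosomal rows lay at a CG of GRCm39, whose GENCODE vM39 annotation gave gene starts. Windows were tested with limma 3.58.1 in R 4.3.3 across all windows kept, with Benjamini-Hochberg adjustment. In simulated data for the stage comparison over 23991 windows, 200 windows were changed. The fit recovered 25.0% of changes of 3 percentage points and 100% of 8. Of 132 calls, 7 were unchanged windows, 6 of them among the 272 with under 5000 reads in a pool. A fit weighted by reads, added after this was seen, made 1 such call of 127. In the real data 43.9% of windows were called lower and 19.4% higher. The adjustment depends on that share, so the simulated recovery and false calls do not carry over to the real fit. Library shares were compared between subtypes by exact permutation in SciPy 1.17.1. The same test had been planned between the stages and is not reported, since these libraries made up the pools that chose the windows. Replicate numbers follow sex in the labels. Over windows, the HMR counts of same-numbered eYFP- and eYFP+ libraries deviated together in all 4 pairs of P60 (r = 0.143 to 0.331), so the numbers were taken to pair the P60 libraries, although eYFP- replicate 2 correlated as well with eYFP+ replicate 4, also male (r = 0.258). The 2 pairs of P2 had r = 0.021. No pair of libraries held identical HMR counts. P-values of windows rest on a spread between pools common to all windows, and those of libraries on the spread between these libraries.

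The named windows were the 10 lowest members, the 5 lowest with at least 500 CpGs and usual coverage, the 5 largest rises and falls, the 3 longest runs and the 3 windows on either side of the threshold. The members, families and lists were chosen with earlier results of these data known.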

Additional observations from a re-analysis of the deposited data

Results flagged for a closer look

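At P60, eYFP+ replicate 1 had 1.1015% of the bases of member windows in HMRs, apart from the other 3 eYFP+ libraries at 0.914% to 0.932%. The gap is 0.903 of the range of the group, above the 0.829 that 4 values allow by Dixon's criterion. Replicate 1 of eYFP- was higher still, at 1.17% against 0.910% to 0.970% in the other 3, a gap below that value, and both replicate 1 libraries had the highest HMR shares in members, 3.90% and 4.10%. This was looked at 6 times, for related HMR measures of both P60 groups, and chance alone sets about 1 in 20 apart.

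The sign of the subtype difference in members changed between the stages. The median eYFP+ minus eYFP- level was 1.29 percentage points at P2, positive in 2266 of 2400 members, and -0.61 at P60, negative in 1875. Other windows did the same in 81.3% of cases, against 74.0% of members. Each value compares 1 pool with 1 pool, and the difference between the stages was not tested.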

How the results depend on the processing

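The share of members called lower at P60 was between 81.8% and 98.8% under all 26 alternatives (96.6% as reported), the lowest with windows chosen on the P2 pools alone. With pools centred on their median, 36.2% of all windows were lower and 27.9% higher, and 94.3% and 0.833% of members. Without 1 pool, it was 95.6% to 96.9%. The median stage difference lay between -8.61 and -6.29 percentage points in 17 alternatives and at -10.1 in lone WCGW CpGs alone. Subtype calls among members depended on the setting: 0 with 200 kb windows, with CpGs of at least 5 reads in each pool, with windows of usual coverage, with the median of CpG levels and with weights by reads, 1 with a minimum of 500 CpGs, 10 on the level scale, 25 with 50 kb windows and 49 with pools centred. The HMR share difference between the stages was 0.815 to 0.920 percentage points without 1 library, and that in covered bases was 0.0207. The subtype difference at P60 ran from -0.194 to 0.0614 without 1 library and was positive only without eYFP- replicate 1. Leaving out a library at P2 was not run, since 1 would remain. The ratio of CpG density ran from 0.596 to 0.697, that of gene starts from 0.778 to 1.18, and other features of the members stayed within 1.5 times their value. Of 101 values of single windows and families under alternatives, 87 stayed, 9 moved, 5 lost their call and 0 reversed.

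With the replicate block over the 4 pairs of P60, an alternative added after the correlations were seen, the subtype difference in HMR share was -0.0855 percentage points, with eYFP+ higher in 1 of 4 (two-sided exact permutation p = 0.25, where 0.125 is the smallest 4 pairs allow, against 0.6 without pairs). Over all 6 pairs, including those of P2, it was -0.0701, with eYFP+ higher in 2 of 6 (exact permutation p = 0.125, against 0.764 without pairs). The pairing changed no call.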
